A study of Mus musculus with 6 samples.

Results

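The genes described here serve the unfolded protein response and the ATF4 response in fibroblasts cultured from mouse embryos. They are 37 genes, chosen by name, and each was found among the 36812 loci (stretches of overlapping transcripts) that carry a gene name and a usable value. The 37 genes occupy 38 loci, since Psat1 names a locus on each strand, and every gene passed the filter on low counts that left 15673 loci for testing. By role they are 14 folding genes of the endoplasmic reticulum (ER), 4 genes of ER-associated degradation, 8 sensors and transcription factors, 4 feedback and stress targets, and 7 genes of amino acid, serine and one-carbon metabolism.

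The study compared 3 libraries labelled STC1+/+ WT with 3 labelled STC1-/- KO, all of the C57BL/6 background strain and grown in DMEM with FCS and Pen/Strep. No treatment that would stress the ER is named in the labels. Stc1 encodes stanniocalcin-1, a secreted glycoprotein. The labels used here state neither how the allele was disrupted, nor the age of the embryos, nor whether libraries of the same genotype had separate embryos as their source. The p-values therefore measure only the spread between these libraries, which may be technical.

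Proteins that enter the ER are folded there by chaperones and disulfide isomerases. When unfolded protein builds up, the sensors ATF6, IRE1 (gene Ern1) and PERK (gene Eif2ak3) respond: cleaved ATF6 and the spliced form of XBP1 raise chaperone and degradation genes, while PERK phosphorylates eIF2alpha and so favours translation of ATF4. ATF4 is also reached through other eIF2alpha kinases, for instance when amino acids run short, and it raises genes that make, import and charge amino acids. Fibroblasts secrete large amounts of collagen, which is rich in glycine and is folded in the ER.

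The library depths ran from 21882092 to 71488701 estimated fragments. Values are CPM, fragment counts scaled to 1 common effective library size, or the deposited FPKM, which also divides by transcript length and is used wherever levels of different genes are compared. As a check of the labels, the Stc1 locus had 2245, 291 and 368 fragments in wild-type replicates 1 to 3 and 6, 0 and 0 in knockout replicates 1 to 3. The replicate numbers are names and pair no libraries. Fibroblast markers were present throughout, with Col1a1 between 829 and 11994 CPM, while the muscle regulator Myod1 was at 0 CPM in 5 of 6 libraries. Des, another muscle marker, was present in all, at 23.7, 98.3 and 82.4 CPM in wild-type and 18.8, 11.8 and 26.4 CPM in knockout libraries. Over the 6 libraries, 5 endothelial markers summed to between 6.7 and 23.6 CPM and 5 epithelial markers to between 10.9 and 32.4 CPM. All 16 macrophage markers measured were highest in wild-type replicate 3, and their summed level there was 12676 CPM, against 404 and 1643 CPM in wild-type replicates 1 and 2 and 1548, 504 and 554 CPM in knockout replicates 1 to 3. In such bulk samples fewer cells of a type and less RNA per cell cannot be told apart.

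The promoter windows of 4 genes are printed, Hspa5 and Hsp90b1 for the folding genes and Asns and Trib3 for the ATF4 targets, because each holds the short element known for its arm. RefSeq windows of 300 bases, from 250 before to 50 after each transcript start on GRCm38.p6, were found for 33 of the 37 genes. The ER stress response element ERSE was searched on both strands as CCAAT, any 9 bases, then CCACG. It was present in 7 of 12 folding genes with a window and in Syvn1, and in 0.119% of all 32851 windows. Its second form, ATTGG, any 1 base, then CCACG, was present in Dnajb11 and Herpud1 and in 0.0365% of windows. The ATF4 and C/EBP composite element, searched as TGATGNAA, was present in Asns, Atf3, Chac1, Herpud1, Nupr1, Trib3 and Vldlr and in 3.97% of windows; Herpud1 held this element beside the second ERSE form. The windows are printed 5′ to 3′ on the strand of the gene, with the fixed letters of the ERSE (Hspa5, Hsp90b1) or of the composite element (Asns, Trib3) in capitals. Hsp90b1 holds 2 ERSE matches, the second on the opposite strand, and the match in Trib3 is also on the opposite strand. A match is a description of letters and was not tested as a binding site.
Hspa5 (GRCm38.p6 chr2:34771840-34772139, plus strand): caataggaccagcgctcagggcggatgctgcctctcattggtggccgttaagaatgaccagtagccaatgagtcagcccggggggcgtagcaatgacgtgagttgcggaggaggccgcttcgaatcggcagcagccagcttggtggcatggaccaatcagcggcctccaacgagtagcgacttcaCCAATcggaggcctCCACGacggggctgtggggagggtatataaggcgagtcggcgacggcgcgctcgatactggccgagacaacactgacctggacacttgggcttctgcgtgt
Hsp90b1 (GRCm38.p6 chr10:86705395-86705694, minus strand): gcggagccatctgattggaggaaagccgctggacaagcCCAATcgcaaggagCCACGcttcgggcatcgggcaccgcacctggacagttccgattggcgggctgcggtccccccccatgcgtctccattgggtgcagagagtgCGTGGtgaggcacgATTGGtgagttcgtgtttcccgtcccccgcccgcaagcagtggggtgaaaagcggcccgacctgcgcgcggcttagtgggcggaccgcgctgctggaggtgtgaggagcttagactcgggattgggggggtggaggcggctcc
Asns (GRCm38.p6 chr6:7693160-7693459, minus strand): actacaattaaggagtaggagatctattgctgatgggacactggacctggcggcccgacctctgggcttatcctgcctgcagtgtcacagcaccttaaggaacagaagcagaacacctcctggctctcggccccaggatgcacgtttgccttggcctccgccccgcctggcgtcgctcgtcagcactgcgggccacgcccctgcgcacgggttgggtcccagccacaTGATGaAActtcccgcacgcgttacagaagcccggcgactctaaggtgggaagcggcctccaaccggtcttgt
Trib3 (GRCm38.p6 chr2:152344011-152344310, minus strand): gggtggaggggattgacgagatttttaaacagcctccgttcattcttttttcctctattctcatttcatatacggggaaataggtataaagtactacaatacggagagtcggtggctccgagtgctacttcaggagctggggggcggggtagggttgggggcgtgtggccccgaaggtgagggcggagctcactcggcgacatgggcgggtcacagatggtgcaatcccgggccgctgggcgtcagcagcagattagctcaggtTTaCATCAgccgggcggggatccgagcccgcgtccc

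No difference between knockout and wild-type libraries passed the test applied to all loci in any of the 37 genes. edgeR's quasi-likelihood test called 0 members at a Benjamini-Hochberg adjusted p under 0.05, and 0 of all 15673 loci (0%). It did not call even Stc1, the disrupted gene (log2 fold change -7.72, edgeR adjusted p = 0.763). DESeq2 did call Stc1 (adjusted p = 3.92e-05). The adjusted p of the members ran from 0.763 to 0.957. At an unadjusted p under 0.05 there was 1 member lower in knockout cells, Xbp1, and 0 higher, where 3.87% of all loci passed, 2.27% lower and 1.6% higher. DESeq2 called 0 of the 36 members to which it gave an adjusted p (0.322% of its tested loci were called) and had 2 at an unadjusted p under 0.05, Mthfd2 and Aldh1l2 (5.2% of its loci). limma-voom called 0 and had 0 at an unadjusted p under 0.05, where 3.41% of all loci had it. Negative log2 fold changes were found in 27 of 37 members, against 55.6% of all loci, and the median was -0.26 against -0.05 over all loci, and -0.03 without wild-type replicate 2. In 2 members, Creld2 and Vldlr, every knockout library lay above every wild-type library (5.18% of all loci), and in 1, Mthfd2, every knockout library lay below (5.44%); for both directions together it was 10.6% of all loci. These counts rest on single libraries: at an unadjusted p under 0.05 there were 6 members without wild-type replicate 1 (Dnajc3, Sel1l, Xbp1, Atf6, Nupr1 and Mthfd2), where 18.4% of all loci passed. There were 2 without wild-type replicate 2 (Vldlr and Mthfd2, 2.3% of all loci) and 7 without wild-type replicate 3 (Herpud1, Asns, Psat1, Psph, Shmt2, Mthfd2 and Aldh1l2, 5.32% of all loci). There were 0 without knockout replicate 1, 2 or 3, with 1.74%, 2.06% and 1.69% of all loci.

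The members peaked in different libraries, 10 of 37 of them in a knockout library. Knockout replicates 1 to 3 were the highest for 3, 6 and 1 members, and for 11.5%, 7.45% and 15% of all loci. Wild-type replicate 2 was the highest of the 6 libraries for 17 of 37 members and for 27.3% of all loci. It exceeded the next library by over 1.5 times for 9 members, Herpud1, Trib3 and the 7 amino acid and serine genes, against 7.54% of all loci. Wild-type replicate 3 was the highest for 9 members and for 28.9% of all loci, and it exceeded the next library by over 1.5 times for Sdf2l1, Edem1 and Atf3, against 9.56% of all loci.

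**Figure D1:**
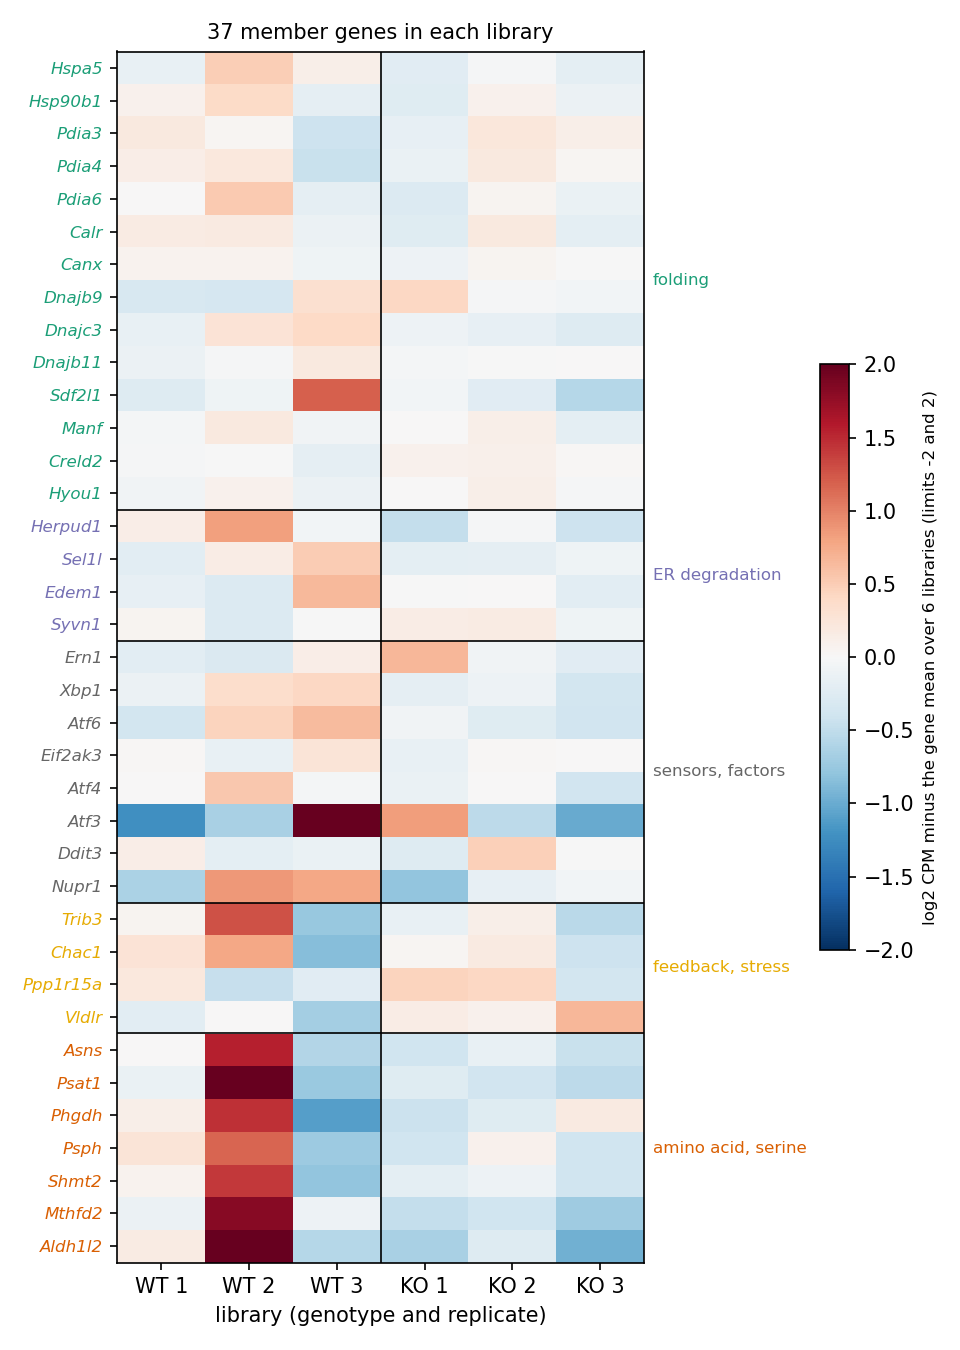
Levels of the 37 genes in each library: colour is log2 CPM minus the mean of that gene over the 6 libraries, with values beyond the colour limits drawn at the limit, and rows are grouped by role. The amino acid and serine genes are all highest in wild-type replicate 2, while most folding genes stay near white in every library.

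Most folding genes varied little across the 6 libraries, with Sdf2l1 as the exception described below. Their FPKM ran from 11.6 (Sdf2l1, knockout replicate 3) to 647 (Calr, wild-type replicate 2). The median log2 fold change of the 14 genes was -0.04, with 9 negative and 5 positive. The median of their standard deviations over the 6 libraries was 0.24 log2 CPM, against 0.38 over all loci. That comparison is not matched for level: the mean of the folding genes was 7.85 to 8.10 log2 CPM per library, against 3.70 to 3.81 over all loci. With 1 library left out the median fold change stayed between -0.10 and -0.01.

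Calr and Canx encode calreticulin and calnexin, the lectin chaperones that hold newly made glycoproteins. Calr had 582, 647 and 513 FPKM in wild-type replicates 1 to 3 and 454, 624 and 487 FPKM in knockout replicates 1 to 3. Canx had 344, 319 and 293 FPKM in wild-type and 269, 328 and 304 FPKM in knockout libraries. The genotypes overlapped for both, with log2 fold changes of -0.14 (standard error 0.21) and -0.03 (0.16). For Canx the 95% interval of the log2 fold change was -0.41 to 0.34.

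Hspa5, which encodes the HSP70 chaperone BiP and is the usual marker of the response, had 933, 1453 and 1128 CPM in wild-type and 882, 1017 and 899.8 CPM in knockout libraries. Knockout replicates 1 and 3 lay below all wild-type libraries, but knockout replicate 2 lay above wild-type replicate 1. The log2 fold change was -0.33 ± 0.22 (SE; edgeR unadjusted p = 0.182), and -0.13 without wild-type replicate 2. Hsp90b1, the HSP90 of the ER, whose locus also carries the names Gm15344 and AC152453.1, was likewise highest in wild-type replicate 2, at 1649.5 CPM, and ran from 1075 to 1354 CPM in the other 5 libraries. Hyou1, the exchange factor and chaperone of BiP, lay between 206 and 243 CPM in all 6 libraries.

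Among the disulfide isomerases, Pdia3, the partner of calnexin and calreticulin, lay between 840.2 and 1318 CPM and Pdia4 between 235 and 370.2 CPM, each lowest in wild-type replicate 3. Pdia6 was highest in wild-type replicate 2, at 569 CPM, and lay between 328 and 411 CPM elsewhere. Their log2 fold changes were 0.11, 0.04 and -0.26, none beyond the spread between libraries. The Pdia4 locus also carries Mir704, which cannot be told apart from it in these counts.

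The J-domain proteins assist BiP in folding or in handing over substrates. Dnajc3, which also inhibits eIF2alpha kinases, had 122, 163 and 177 CPM in wild-type and 126, 120.0 and 112 CPM in knockout libraries. Wild-type replicate 1 lay within the knockout range, and the log2 fold change was -0.37 ± 0.18 (SE; edgeR unadjusted p = 0.0838). Dnajb9, a target of spliced XBP1, had 30.8, 30.8 and 48.4 CPM against 51.7, 38.0 and 37.2 CPM, with knockout replicate 1 highest. Dnajb11 varied little, from 119 to 148 CPM.

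Sdf2l1, a cofactor of Dnajb11 and BiP, was the folding gene with the widest spread. It had 16.9, 19.0 and 46.6 CPM in wild-type and 19.5, 17.3 and 13.7 CPM in knockout libraries, so that wild-type replicate 3 stood at 2.39 times the next library. Its log2 fold change was -0.71 ± 0.43 (SE), with a 95% interval of -1.77 to 0.35, and it was -0.09 without wild-type replicate 3. For the other 13 folding genes the intervals lay between -0.86 and 0.82.

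Manf and Creld2 encode small ER proteins that are secreted under stress. Creld2 had 47.4, 48.0 and 42.5 CPM in wild-type and 51.2, 51.8 and 49.2 CPM in knockout libraries. The genotypes did not overlap, yet the difference was small, with a log2 fold change of 0.14 ± 0.12 (SE; edgeR unadjusted p = 0.289). Manf, which shares its locus with Rbm15b, lay between 101 and 133 CPM with overlapping genotypes.

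ER-associated degradation returns misfolded proteins to the cytosol for destruction. Herpud1, a membrane protein that assembles the degradation complex, had 57.8, 93.2 and 50.8 CPM in wild-type and 37.7, 51.7 and 39.3 CPM in knockout libraries. Its log2 fold change was -0.65 ± 0.28 (SE; edgeR unadjusted p = 0.0575), and -0.33 without wild-type replicate 2, the highest library. The genotypes overlapped, since knockout replicate 2 lay just above wild-type replicate 3.

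Sel1l and Syvn1 encode the scaffold and the ubiquitin ligase (HRD1) of one complex, and Edem1 encodes a lectin that delivers glycoproteins to it. Sel1l had 186, 238 and 306 CPM in wild-type and 187, 189.9 and 203 CPM in knockout libraries. Edem1 had 163, 150.3 and 287 CPM in wild-type and 180.2, 183 and 157 CPM in knockout libraries. Both were highest in wild-type replicate 3, the library with the most macrophage markers, whose part in this was not tested. Without that library the log2 fold change of Sel1l was -0.13, against -0.33, and that of Edem1 was 0.15, against -0.21. Syvn1 had 75.5, 60.2 and 71.9 CPM against 80.5, 81.2 and 68.7 CPM, and its log2 fold change was 0.15 ± 0.15 (SE). Across these 4 genes the median log2 fold change was -0.27, and 0.01 without wild-type replicate 3.

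Of the sensors and factors, Xbp1 and Atf6 were higher in wild-type replicates 2 and 3 than in all other libraries. Xbp1, whose spliced messenger encodes the active factor, had 88.7, 123 and 127 CPM in wild-type and 84.6, 88.8 and 74.4 CPM in knockout libraries. The ranges overlapped narrowly, with wild-type replicate 1 at 88.7 and knockout replicate 2 at 88.8 CPM. Its log2 fold change was -0.45 ± 0.18 (SE; edgeR unadjusted p = 0.0479, adjusted p = 0.763, and 0.152 to 0.982 over the alternative settings). The counts do not tell the spliced from the unspliced form. Without wild-type replicate 1 the unadjusted p was 0.00837, and without any other single library it lay between 0.0853 and 0.146.

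Atf6 had 73.2, 128 and 147 CPM in wild-type and 89.9, 79.5 and 72.2 CPM in knockout libraries. The log2 fold change was -0.53 ± 0.28 (SE; edgeR unadjusted p = 0.106). Nupr1, a small stress-induced nuclear protein, was high in the same pair of libraries, with 29.8, 83.7 and 78.7 CPM in wild-type and 26.6, 41.3 and 44.1 CPM in knockout libraries. Its log2 fold change was -0.78 ± 0.43 (SE). Without wild-type replicate 1, the wild-type library nearest to the knockout libraries for these 3 genes, the log2 fold changes of Xbp1, Atf6 and Nupr1 were -0.59, -0.76 and -1.11, with adjusted p of 0.152, 0.132 and 0.149 in edgeR. Leaving out wild-type replicate 2 or 3 instead gave smaller differences: Atf6 was at -0.32 without wild-type replicate 3 (edgeR unadjusted p = 0.284), and Nupr1 at -0.52 without wild-type replicate 2 (edgeR unadjusted p = 0.326). Wild-type replicates 2 and 3 were also the highest libraries for 7 of the 16 macrophage markers, while wild-type replicate 3 and knockout replicate 1 were the highest for the other 9. Among the 7 was the complement gene C1qa, at 0.255, 90.5 and 809.7 CPM in wild-type and 2.91, 0.188 and 0.377 CPM in knockout libraries. The part of these markers' cells in the values of Xbp1, Atf6 and Nupr1 was not tested. The median log2 fold change of the 8 sensors and factors was -0.40, and -0.15 without wild-type replicate 3.

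The sensor genes Ern1 and Eif2ak3 did not separate the genotypes. Ern1 had 49.5, 46.7 and 62.6 CPM in wild-type and 90.2, 54.5 and 48.7 CPM in knockout libraries, with knockout replicate 1 standing apart. Its log2 fold change was 0.28, and -0.04 without that library. Eif2ak3 lay between 35.7 and 47.3 CPM in all 6 libraries.

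Atf4, whose locus also carries Smcr7l, had 331, 476 and 319 CPM in wild-type and 299, 329.8 and 252 CPM in knockout libraries. Wild-type replicate 2 stood at 1.44 times the next library, and the genotypes overlapped in the others. The log2 fold change was -0.36 ± 0.22 (SE), and -0.13 without that library. ATF4 is controlled mainly through translation, which these messenger levels do not measure.

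Atf3 and Ddit3 (CHOP) are factors that act after ATF4 in prolonged stress. Atf3 was the most variable member. It had 10.9, 16.2 and 150.1 CPM in wild-type and 45.6, 17.6 and 12.7 CPM in knockout libraries, so that wild-type replicate 3 stood at 3.29 times knockout replicate 1, the next library. Its log2 fold change was -1.23 ± 1.11 (SE), and 0.90 without wild-type replicate 3. Atf3 is also an early response gene of macrophages, and the macrophage markers were highest in the same library; their part in the result was not tested. Ddit3 did not follow Atf3: it had 87.5, 69.7 and 72.7 CPM in wild-type and 66.6, 111 and 79.7 CPM in knockout libraries, with overlapping genotypes and a log2 fold change of 0.16 (-0.06 without knockout replicate 2, the highest). The Ddit3 locus lies inside that of Mbd6, Mars and Gm4189 on the opposite strand, so its counts may include reads of those genes.

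The 4 feedback and stress targets did not share 1 order of libraries, and their median log2 fold change was 0.04 (0.18 without wild-type replicate 2 and -0.15 without wild-type replicate 3). Trib3, a pseudokinase that restrains ATF4 and CHOP, had 33.3, 77.8 and 19.0 CPM in wild-type and 28.8, 34.7 and 22.1 CPM in knockout libraries. Chac1, which degrades glutathione, had 29.1, 40.8 and 13.2 CPM in wild-type and 24.5, 27.2 and 17.9 CPM in knockout libraries. Both were highest in wild-type replicate 2 and lowest in wild-type replicate 3, with the knockout libraries between. The log2 fold change of Trib3 was -0.60 ± 0.52 (SE), and 0.14 without wild-type replicate 2; that of Chac1 was -0.25 (0.42) and 0.15 without that library.

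Ppp1r15a, the GADD34 subunit that brings a phosphatase back to eIF2alpha, showed another order. It had 119.9, 75.6 and 88.7 CPM in wild-type and 141, 138 and 81.0 CPM in knockout libraries, with a log2 fold change of 0.34 ± 0.28 (SE). Vldlr, a lipoprotein receptor whose gene is an ATF4 target, had 62.5, 72.7 and 45.3 CPM in wild-type and 80.6, 77.0 and 115 CPM in knockout libraries. Every knockout library lay above every wild-type library, and the log2 fold change was 0.59 ± 0.25 (SE; edgeR unadjusted p = 0.0539, adjusted p = 0.763). Without 1 library the log2 fold change of Vldlr ran from 0.39 (without knockout replicate 3) to 0.77 (without wild-type replicate 2).

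The 7 amino acid and serine genes were each highest in wild-type replicate 2, while the other 5 libraries overlapped in all of them except Mthfd2. Wild-type replicate 2 stood at 1.86 (Psph) to 4.45 (Psat1) times the next library. Their median log2 fold change was -0.94, with 7 of 7 negative, and -0.05 without wild-type replicate 2, with 3 of 7 positive. The negative median thus rested on that 1 library; it was -0.57 with limma on log2(FPKM + 1).

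Phgdh, Psat1 and Psph encode the enzymes that make serine from a glycolytic intermediate, in that order. Psat1 (minus strand, mm10 chr19:15904659-15947337) had 118, 525 and 77.2 CPM in wild-type and 109, 99.1 and 89.2 CPM in knockout libraries. Wild-type replicate 2 stood at 4.45 times the next library, and the knockout libraries lay between the other two wild-type libraries. The log2 fold change was -1.28 ± 0.73 (SE), and 0.04 without wild-type replicate 2. A plus-strand locus of the same name, over the 3′ end of the gene, held 9, 33 and 5 fragments in wild-type and 14, 8 and 0 in knockout libraries. A count of 0 is read as up to 3 counts. This locus did not pass the filter of the edgeR fit on all 6 libraries, and in DESeq2 its log2 fold change was -0.23 (DESeq2 unadjusted p = 0.879).

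Phgdh had 37.3, 94.7 and 16 CPM in wild-type and 25.5, 29.1 and 39.1 CPM in knockout libraries. Psph had 28.4, 52.8 and 14.3 CPM in wild-type and 18.0, 25.2 and 18.0 CPM in knockout libraries. Both showed the order seen for Trib3 and Chac1, with the knockout libraries above wild-type replicate 3 and below wild-type replicate 2. Their log2 fold changes were -0.66 (standard error 0.63) and -0.64 (0.47), and 0.24 and -0.05 without wild-type replicate 2.

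Asns encodes asparagine synthetase and is a standard ATF4 target. It had 99.5, 289.8 and 65.9 CPM in wild-type and 75.3, 89.1 and 72.9 CPM in knockout libraries, a log2 fold change of -0.94 ± 0.55 (SE) and of -0.05 without wild-type replicate 2. Its promoter window, printed above, holds the composite element, but those of Psat1, Phgdh, Psph, Shmt2 and Mthfd2 do not hold these letters.

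**Figure D2:**
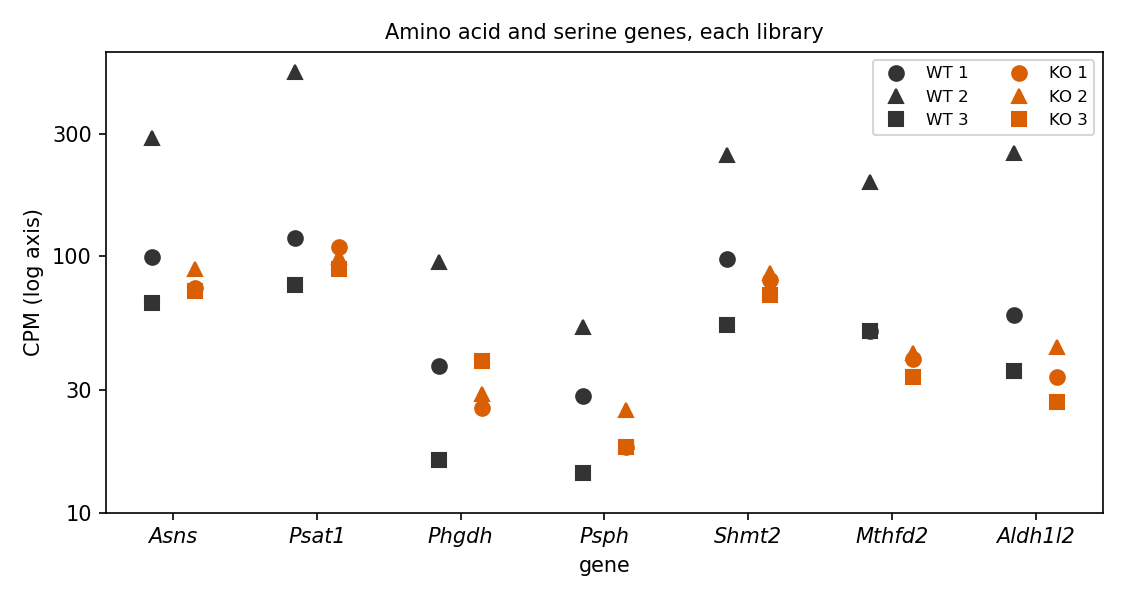
CPM (log axis) of the 7 amino acid and serine genes in each of the 3 wild-type and 3 knockout libraries; each point is 1 library. Wild-type replicate 2 is the highest point for every gene, and the groups are fully apart for Mthfd2 only.

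Shmt2, Mthfd2 and Aldh1l2 encode mitochondrial enzymes of the folate cycle, which pass on the one-carbon unit released from serine. Shmt2 had 97.1, 248 and 53.8 CPM in wild-type and 81.0, 86.1 and 70.6 CPM in knockout libraries, with a log2 fold change of -0.75 (standard error 0.54) and of 0.08 without wild-type replicate 2.

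Mthfd2 had 51.0, 194 and 51.3 CPM in wild-type and 39.8, 41.8 and 33.7 CPM in knockout libraries. No knockout library reached the lowest wild-type library, so the genotypes were apart even with wild-type replicate 2 set aside. The log2 fold change was -1.36 ± 0.57 (SE; edgeR unadjusted p = 0.0553, adjusted p = 0.763; DESeq2 unadjusted p = 0.0224). Without wild-type replicate 2 it was -0.40 ± 0.14 (SE; edgeR unadjusted p = 0.0345, adjusted p = 0.896), where 2.3% of all loci had an unadjusted p under 0.05.

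Aldh1l2 had the largest log2 fold change of the 37 genes in size, -1.73 ± 0.76 (SE; edgeR unadjusted p = 0.0628; DESeq2 unadjusted p = 0.0191). It had 58.8, 253 and 35.6 CPM in wild-type and 33.7, 44.1 and 27.1 CPM in knockout libraries. The genotypes overlapped, because knockout replicate 2 lay above wild-type replicate 3, and the log2 fold change was -0.42 without wild-type replicate 2.

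**Figure D3:**
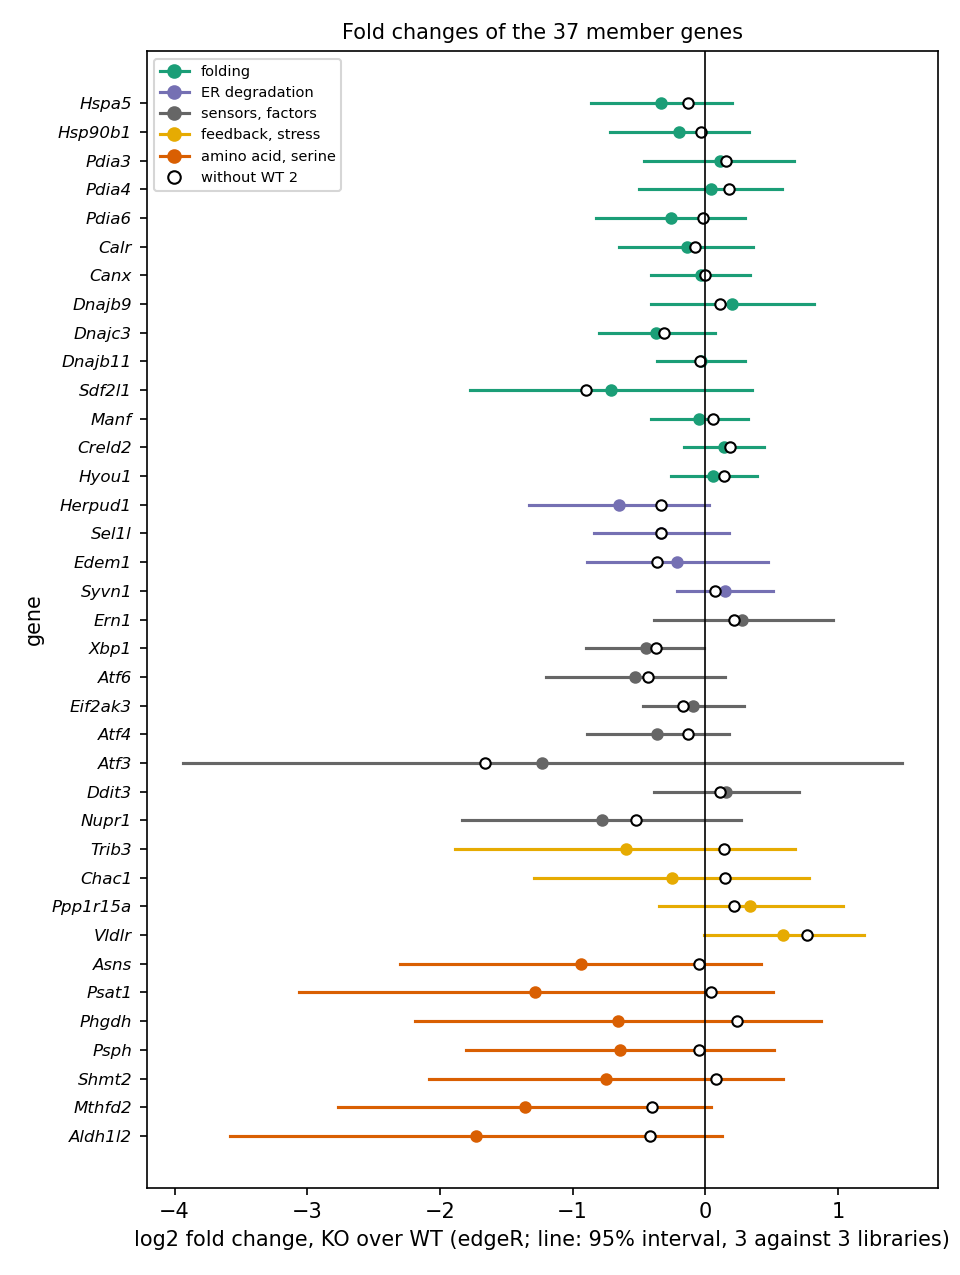
Log2 fold changes (knockout against wild type) of the 37 genes from edgeR: filled points with 95% intervals use 3 against 3 libraries, and open points leave out wild-type replicate 2. The amino acid and serine genes lie between -1.73 and -0.64 with all libraries and between -0.42 and 0.24 without wild-type replicate 2.

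The folding genes and the amino acid and serine genes were then compared within each library. Summed over the 14 folding genes the FPKM was 2599, 3043 and 2385 in wild-type and 2241, 2787 and 2482 in knockout libraries. Summed over the 7 amino acid and serine genes it was 171, 573 and 116 in wild-type and 143, 153 and 135 in knockout libraries. The ratio of the first sum to the second was 15.2, 5.31 and 20.6 in wild-type and 15.6, 18.2 and 18.4 in knockout libraries, so wild-type replicate 2 stood below all others and the knockout libraries lay within the range of the wild-type libraries. The standard deviation over the 6 libraries was 0.67 to 1.17 log2 CPM for the amino acid and serine genes and 0.08 to 0.62 for the folding genes. These ranges of the members did not overlap, but those of the further lists described below did. Further ER folding genes had 0.05 to 0.91, tRNA synthetases 0.23 to 0.58, amino acid carriers 0.36 to 1.54 and further ATF4 targets 0.12 to 1.64. No test was made of this difference between groups of genes, since genes of 1 library are not replicates.

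Further genes of both arms were measured beside the members. The lists held 18 tested genes of ER folding, 15 of degradation, 18 of translocation and coats and 13 of transfer RNA. They also held 8 carriers, 17 ATF4 targets, 5 eIF2alpha genes and 12 heat shock genes. edgeR called 0 of them, and 4 had an unadjusted p under 0.05, Slc7a11, Slc1a5, Ddit4 and Vimp (3.87% of all loci). Those 4 were about the same share of the tested further genes as over all loci. Of the 13 genes that charge or export transfer RNA, 12 had negative log2 fold changes (median -0.27) and 13 of 13 were highest in wild-type replicate 2. Leaving that library out gave a median of 0.06 with 11 positive. Tars, the threonine enzyme, had 151, 313 and 101 CPM in wild-type and 116, 139.7 and 122 CPM in knockout libraries. Xpot, the transfer RNA exporter, had 84.9, 159.7 and 86.2 CPM against 78.9, 80.2 and 77.8 CPM, and without wild-type replicate 2 its log2 fold change was -0.10.

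Of 8 amino acid carriers with a kept locus (Slc7a5, also listed, had none), 7 had negative log2 fold changes (median -0.76) and 6 were highest in wild-type replicate 2. When that library was left out the median was -0.07, with 4 positive. Slc1a5, a glutamine carrier, had 24, 137 and 48.0 CPM in wild-type and 24.3, 22.2 and 18.1 CPM in knockout libraries (log2 fold change -1.69, edgeR unadjusted p = 0.0372; -0.72 without wild-type replicate 2). Slc7a11, the cystine importer, went the other way, at 50, 30.5 and 39.2 CPM in wild-type and 265, 111 and 208 CPM in knockout libraries. It was the only gene of these further lists that DESeq2 called (adjusted p = 3.92e-05; edgeR adjusted p = 0.763), and it also answers to NRF2, another stress factor.

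Of 17 tested further ATF4 targets, 10 had negative and 7 positive log2 fold changes (median -0.12), and 9 were highest in wild-type replicate 2. The median was 0.20, with 10 positive, when that library was left out. Pck2, the mitochondrial PEPCK, had 57.5, 184 and 37.1 CPM in wild-type and 27.8, 44.0 and 39.5 CPM in knockout libraries, with a log2 fold change of -1.33 (-0.34 without wild-type replicate 2). Ddit4 (REDD1), an inhibitor of mTORC1 signalling that also answers to hypoxia, had 63.3, 42.6 and 36.8 CPM in wild-type and 94.7, 67.0 and 85.9 CPM in knockout libraries. Ddit4 did not share the order of Pck2, and its genotypes did not overlap (log2 fold change 0.79, edgeR unadjusted p = 0.0206, adjusted p = 0.763).

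On the ER side, 16 of 18 further folding genes had negative log2 fold changes (median -0.16). Leaving out wild-type replicate 2 gave a median of -0.08 and leaving out wild-type replicate 3 gave -0.12, each with 5 positive. Ero1l, the oxidase of the isomerases, was 1 of the 2 positive genes (0.59), with 217, 109 and 214 CPM in wild-type and 334, 283 and 198 CPM in knockout libraries. Erp29, an ER chaperone, had 139, 159.5 and 318 CPM in wild-type and 135, 131 and 144 CPM in knockout libraries, again with wild-type replicate 3 highest; its log2 fold change was -0.58, and -0.13 without that library. Further degradation genes had a median of -0.07 over 15 genes, which turned to 0.04 when wild-type replicate 3 was left out. Their smallest p belonged to Vimp, a selenoprotein of the Derlin complex, at 52.7, 78.7 and 79.5 CPM in wild-type and 53.4, 50.6 and 46.7 CPM in knockout libraries (edgeR unadjusted p = 0.0478), the same high libraries as Xbp1. Edem3, a relative of Edem1, had a log2 fold change of -0.24.

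Genes of ER translocation and coats had a median log2 fold change of -0.15 over 18 genes, and of 0.02 with 10 positive when wild-type replicate 2 was left out. Ssr4 and Ssr1, subunits of the translocon-associated complex, stood at -0.29 and -0.24 and were lower in every knockout library; Ssr1 was at -0.06 when wild-type replicate 2 was left out. The eIF2alpha kinases and phosphatase had a median of -0.12 over 5 genes (-0.05 without wild-type replicate 2). Eif2ak2 (PKR), whose locus is shared with Gm6548 and Sult6b1, had 313, 103 and 123 CPM in wild-type and 212, 299 and 278 CPM in knockout libraries. Ppp1r15b had a log2 fold change of -0.31, also with every knockout library below every wild-type library. The cytosolic heat shock genes had a median of 0.19 over 12 genes (0.35 without wild-type replicate 1 and 0.08 without wild-type replicate 3), with Hspb8 at 0.36 and Hsph1 at 0.32.

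**Figure D4:**
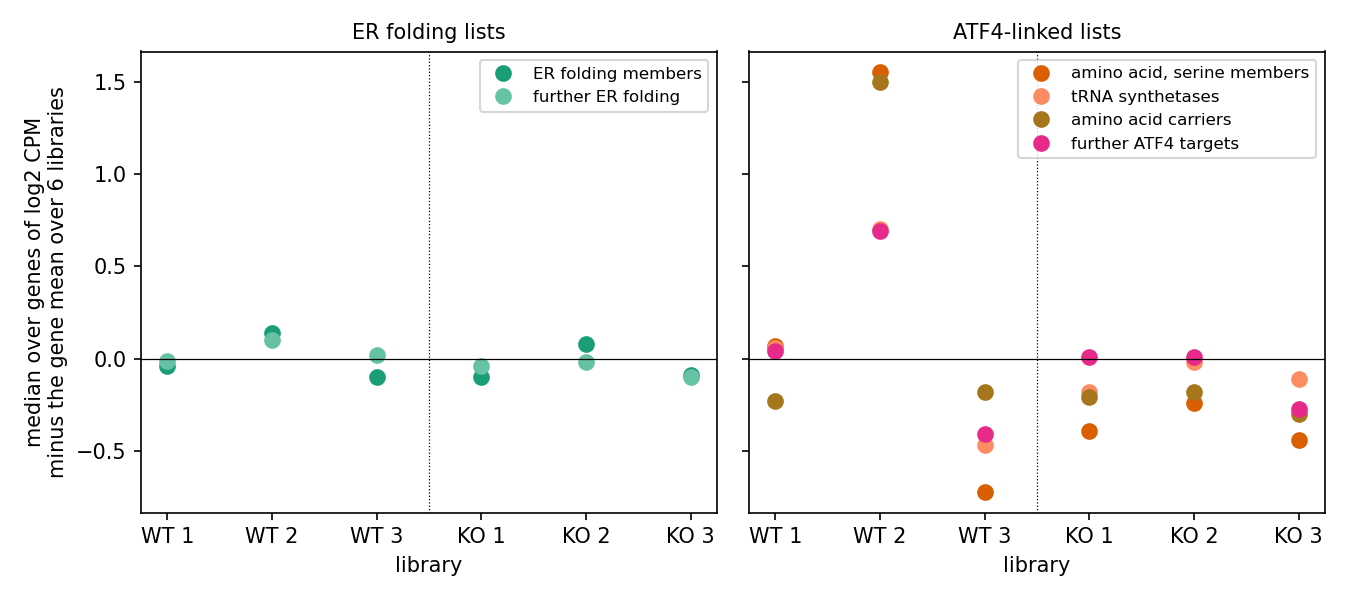
For each library, the median over the genes of a list of log2 CPM minus the mean of that gene over 6 libraries. The ER folding lists (left) stay between -0.10 and 0.14, while the ATF4-linked lists (right) stand at 0.69 to 1.55 in wild-type replicate 2.

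Other groups of genes shared the high library of the amino acid and serine genes. All 8 proliferation markers were highest in wild-type replicate 2, with a summed level of 1418 CPM there, 438 and 220.3 CPM in wild-type replicates 1 and 3, and 336, 319.8 and 300.2 CPM in knockout replicates 1 to 3. Col1a1, the collagen I chain, had 3111, 11994 and 3408 CPM in wild-type and 829, 2080.2 and 2318 CPM in knockout libraries. Of 9 fibroblast markers, 6 were highest in wild-type replicate 2, but Thy1, Pdgfra and Dcn were not. Dcn, a matrix gene, was lowest there, at 216 CPM, and lay between 430.2 and 1459 CPM elsewhere. The muscle marker Des and 3 of 5 endothelial markers were also highest in wild-type replicate 2. Wild-type replicate 3, with the high macrophage markers given above, had the lowest sum of both the proliferation markers and the amino acid and serine genes. The part of cell division, matrix production, macrophages or other cell types in these results was not tested.

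The authors' deposited table, as used here, held 14 of the 37 genes, none of them from the amino acid and serine genes. Each had a q-value of 1 in the authors' deposited table, where 0.193% of the 8799 tested genes had a q-value under 0.05. In the authors' deposited table the log2 fold changes of these 14 genes ran from -1.28 (Atf3) to 0.64 (Vldlr).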

How the data were processed

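Messenger RNA of 3 wild-type and 3 Stc1 knockout fibroblast libraries was measured. The submitters' processing notes name CASAVA 1.8.2, TopHat2 2.0.6, Cuffdiff 2.0.1 and mm10, with no role or order. Per the file headers, the authors' files give an expected count of fragments and an FPKM per locus; 24.2% of positive deposited counts were not whole (tolerance 1e-06) and all were rounded. The authors' deposited comparison table gives mean FPKM, a log2 fold change and p-values and q-values. Loci without a gene name (2667, at most 0.555% of fragments) and 16 marked HIDATA were left out. Slc7a5, Hm13, Lyz2 and Fn1, which were also listed, had no locus among those kept and were not measured. Where a gene named several loci, the one with the highest mean CPM was used. No strand setting of the counting is stated in the labels or headers, so antisense and overlapping genes may share reads.

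Counts were tested over all loci with edgeR 4.0.16 (R 4.3.3), using its quasi-likelihood F test after filterByExpr and TMM scaling. Dispersion was robust and Benjamini-Hochberg adjustment was used at 0.05. The procedure was also run on simulated counts. These held no shift shared by many genes of 1 library, so that run cannot show how the test behaves on the present libraries. Standard errors are the log2 fold change divided by the root of F. Alternatives were DESeq2 1.42.0, limma 3.58.1 with voom or on log2(FPKM + 1) and log2(FPKM + 0.1), other scalings and filters, and leaving out each library. Lists got counts and medians, no test. Members and lists were chosen with earlier results of these data known. The rule for naming genes took the 3 of each role with the smallest p and the members whose genotypes do not overlap. It also took the 2 of each further list with the smallest p. Some of these genes are given by their log2 fold change only, or without a standard error or p. Other members were described after their values were seen. All pairs of libraries differed by more than sampling noise (chi-square per degree of freedom 49.9 or more). Limits read from a count of 0 (up to 3 counts) cover counting error only.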

Additional observations from a re-analysis of the deposited data

How the results depend on the processing

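No member was called at an adjusted p under 0.05 in any of the 16 alternative settings. The number of members at an unadjusted p under 0.05, 1 in the reported fit, was 2 with DESeq2, 3 with no filter on low counts, and 0 with at least 1 CPM in 3 libraries, with upper quartile scaling, with limma-voom, also when its sample quality weights were used. It ran from 0 to 7 when 1 library was left out. The median log2 fold change of the folding genes stayed between -0.10 and -0.01 over all settings. That of the amino acid and serine genes, -0.94, ran from -1.30 (without wild-type replicate 3) to -0.05 (without wild-type replicate 2), and it was -0.66 under limma-voom, -0.60 once sample quality weights were added and -0.57 or -0.58 with limma on FPKM. Over all 37 members and 16 settings, 571 of 592 fold changes kept their direction and 21, in 15 genes, turned. Without wild-type replicate 2 those of Trib3 (0.14), Psat1 (0.04), Chac1 (0.15), Phgdh (0.24) and Shmt2 (0.08) turned positive; without wild-type replicate 3 Trib3 and Psat1 reached -0.96 and -1.70, and those of Atf3 (0.90) and Edem1 (0.15) turned positive. The others that turned, Ern1, Ddit3, Eif2ak3, Pdia3, Pdia4, Canx, Dnajb11 and Manf, lay between -0.14 and 0.06 in the settings where they did. With 3 libraries a genotype and a common biological coefficient of variation of 0.467, small differences were not detectable. Large ones could be missed too, since edgeR did not call Stc1 at a log2 fold change of -7.72. No paired analysis was possible because the labels give no number that pairs libraries.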
